A study of Mus musculus with 12 samples.

Results

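The non-coding transcripts of glutamate receptor and postsynaptic density genes were counted in the hippocampus and the cerebral cortex of WT and 5 × FAD mice. Of 47 genes named for the receptor subunits, their auxiliary proteins, the scaffolds beneath them and the calcium/calmodulin-dependent kinase II (CaMKII) subunits, 34 had at least 1 row in the count table and 13 had none. The 34 genes held 125 of the 48033 rows, and a row was taken as a member when its transcript identifier belonged to 1 of the named genes in the GENCODE M21 annotation of GRCm38. The study sequenced rRNA-depleted total RNA of 12 libraries, 3 each of hippocampus WT, hippocampus 5 × FAD, cortex WT and cortex 5 × FAD. All mice were of the C57BL/6J background and aged 7 months. The 5 × FAD mice carried familial Alzheimer's disease mutations in human APP and PS1 transgenes, which the Thy1 promoter drives mainly in neurons, and the WT mice were non-transgenic. Both regions were taken from each mouse, so the hippocampal and cortical libraries of a genotype share animals.

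Glutamate released at excitatory synapses opens AMPA, NMDA and kainate receptors, which are ion channels, and acts on metabotropic receptors, which signal through G proteins. The receptors are held under the synapse by layered scaffolds. MAGUK proteins of the Dlg family bind receptor tails, SAPAP proteins (Dlgap) bind the MAGUKs, and Shank and Homer proteins link this layer to metabotropic receptors and to actin. CaMKII, which is very abundant in the postsynaptic density, responds to calcium entering through NMDA receptors, and loss of synapses is a feature of Alzheimer's disease.

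The libraries held between 3517967 and 5014389 counts, of which the member rows took between 0.604% and 0.875%. A count is 1 read or read pair given to a row. A floor of 3 counts equals 0.598 to 0.853 CPM, which is counts scaled to a library's total. This floor marks low counts only and measures neither counting error nor the spread between replicates. Sex-linked transcripts split the genotypes unequally. Xist had 30468 and 40844 counts in hippocampus 5 × FAD 1 and 2 and 14 to 25 in the other hippocampal libraries, and the 4 Y-linked genes counted (Kdm5d, Eif2s3y, Uty and Ddx3y) were at 0 in 5 × FAD 1 and 2 of both regions and detected in all WT libraries and in 5 × FAD 3. The series describes each genotype as 2 female mice and 1 male. The 5 × FAD libraries matched this, but the 6 WT libraries did not, since all had male counts, so the identity of the WT samples is in doubt for every genotype value below. Sex and genotype could be told apart only through 5 × FAD 3, and values without 5 × FAD 1 and 2 are given for only some of the results named below. Of the regional markers with a row, the summed hippocampal list (Zbtb20 and Lct, 2 of 7) and the summed cortical list (5 of 7) did not overlap between the regions, at 105 to 125 against 25.3 to 48.4 CPM and at 52.6 to 91.5 against 106 to 140 CPM. Zbtb20, a transcription factor of hippocampal neurons, had 424 to 585 counts in hippocampal and 90 to 189 in cortical libraries, and Rorb, a factor of cortical layer neurons, had 17 to 40 in hippocampal and 41 to 65 in cortical libraries. The cortical marker Tbr1 overlapped, with 4 to 26 counts in hippocampal and 16 to 42 in cortical libraries.

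None of the member rows is a protein-coding mRNA: 65 are annotated as retained-intron transcripts and 60 as processed transcripts. Camk2d had 15 rows and Dlg2 had 12, while 8 genes had 1 row, 4 had 2 and 22 had 3 or more. The 13 genes with no row were Gria4, Grin2c, Grin2d, Grik3, Grik4, Grm3, Grm7, Camk2g and all 5 AMPA receptor auxiliary genes in the list (Cacng2, Cacng3, Cacng8, Cnih2 and Cnih3). Exons of coding transcripts of the same gene, with their untranslated parts, made up a median of 64.5% of a row's bases, with a range of 0 to 100%. Bases in these exons are called coding bases below. Reads of the mRNA could therefore have been given to many of these rows, and the amount of this was not tested. In 4 rows the exons overlapped another gene on the same strand and in 4 rows a gene on the opposite strand. The latter were Cttnbp2 ENSMUST00000152499 (Gm15594), Dlgap1 ENSMUST00000126801 and 2 rows of Grin1 (Grin1os). The chart of rows per gene shows how unevenly the rows were spread.

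**Figure D1:**
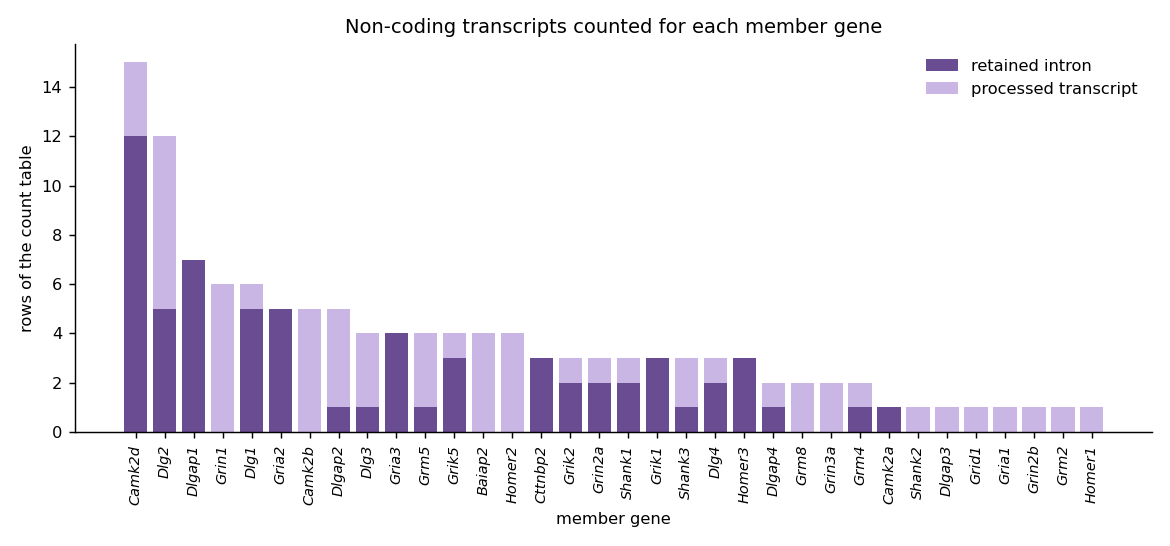
Number of rows of the count table for each of the 34 member genes with a row, stacked by annotated type (retained intron, dark; processed transcript, light). Camk2d with 15 and Dlg2 with 12 rows stand above the rest, and the 5 rows of Gria2 are all retained introns while the 6 of Grin1 are all processed transcripts.

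A retained-intron row usually ran over an exon's 3′ end and on into the intron. Of the 65 retained-intron rows, 47 contained the 5′ splice site of an intron of a coding transcript of the same gene, and 9 contained such an intron whole, as did 5 of the 60 processed transcripts. The junctions below are shown because each is a place where a row of a gene described later runs from coding exon into intron; it need not be the first such place in the row. Each has 10 exonic and 20 intronic bases, 5′ to 3′ on the gene's strand, with the first 2 bases of the intron in capitals, from the GENCODE M21 transcript sequences on GRCm38.
Gria2 ENSMUST00000193645 and ENSMUST00000194523, chr3:80706868-80706897, minus strand: tttcgccaagGTtggtcactcacctgcttc
Cttnbp2 ENSMUST00000139557, chr6:18433800-18433829, minus strand: gcagcatcagGTaaagggattgaagtcttc
Camk2d ENSMUST00000129293, chr3:126770848-126770877, plus strand: ggacctgaagGTcagtatatggagtccata
Grin2a ENSMUST00000197242, chr16:9992100-9992129, minus strand: ggctgacaagGTaaggccaggaggagatgg
Homer3 ENSMUST00000143528, chr8:70291594-70291623, plus strand: gcaagttcagGTtggctgcaggacctcagc
Dlgap1 ENSMUST00000126801, chr17:70787200-70787229, plus strand: ccagaagacaGTaagtaatgcctccactcg
Dlg3 ENSMUST00000147863, chrX:100772950-100772979, plus strand: gctgcttgcgGTgagatagccttcaagggg
The Gria2 junction closes the exon that holds the Q/R site, the codon where RNA editing makes the GluA2 channel nearly impermeable to calcium. Between the codon that follows this site and the end of the exon lie 20 bases. ENSMUST00000193645, which also held a whole intron of 440 bases upstream, ran 2249 bases past this junction and ENSMUST00000194523 ran 535 bases. The Cttnbp2 row ran 1880 bases past its junction into an intron of 6177 bases. The Camk2d row ran 989 bases, the Grin2a row, a single exon that also held 2 whole introns, 465 bases, the Homer3 row 135 bases and the Dlgap1 row 183 bases past theirs. The Dlg3 row held its whole intron of 305 bases.

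Gria2, which encodes the AMPA receptor subunit GluA2, had the highest level per length when all 12 libraries were averaged. Levels between genes were compared as CPM per kb of transcript, with the rows of a gene added. Gria2 averaged 397 CPM per kb over the 12 libraries, followed by Dlg2 at 348, Dlgap1 at 248, Camk2b at 216 and Cttnbp2, an actin-regulating protein of dendritic spines, at 204. The order depended on the group. In the 5 × FAD cortex Dlg2 was at 418 ± 42.7 and Gria2 at 336 ± 34.8 CPM per kb, and Camk2b, at 324 ± 164 in the 5 × FAD hippocampus, was at 128 ± 38.3 in the WT cortex (SD, n = 3). The 5 genes with the most counts together held 58.6% of all member counts. At the other end were Homer1 at 0.626, Grm2 at 1.37, Grin2b at 3.86, Grin3a at 4.05 and Gria1 at 4.21 CPM per kb, although Homer1, Grin2b and Gria1 encode major postsynaptic proteins. The single Homer1 row had 1 to 3 counts in each library, the Grm2 row 0 to 8 and the Grin2b row 2 to 7, and none of these 3 genes passed the low-count filter in any comparison. Of the 125 rows, 32 had at least 100 counts in every library, 16 were at 0 in at least 1 library and 3 had 3 or fewer counts in every library.

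**Figure D2:**
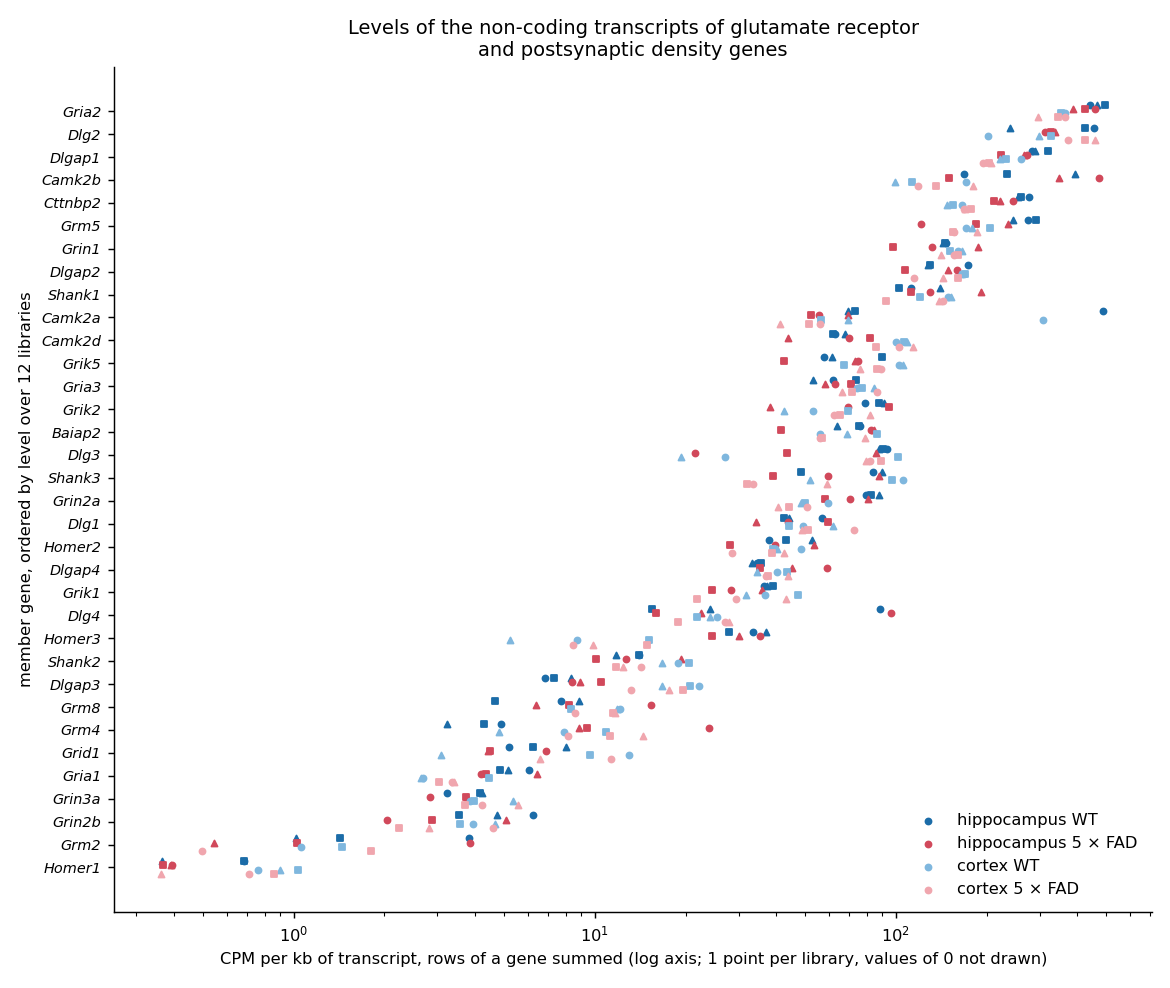
CPM per kb of transcript on a log axis, with the rows of each member gene added, for each of the 34 genes (vertical axis, ordered by the mean of 12 libraries) and each library (colour, group; circle, square and triangle, replicates 1, 2 and 3; values of 0 are not drawn). Gria2 lies highest at 397 and Homer1 lowest at 0.626 on average, and Camk2a of WT 1 lies far above the other libraries in both regions.

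Within a receptor class the rows were led by single genes. The AMPA receptor rows summed to between 5391 and 9863 counts a library, of which Gria2 made up most with 4576 to 8868 counts, while the X-linked Gria3 had 693 to 1084 and Gria1 had 5 to 15. The NMDA receptor rows summed to between 1626 and 2924 counts, led by Grin1, the obligatory subunit, with 900 to 1695, and Grin2a, which shapes mature receptors, with 462 to 1247. The kainate receptor rows summed to between 1250 and 2555 counts, led by Grik2 with 629 to 1674, ahead of Grik1 with 233 to 647 and Grik5 with 138 to 338. Grid1, which encodes the orphan delta receptor GluD1, had 0 to 45 counts. Metabotropic receptor rows summed to between 705 and 1167 counts and were led by Grm5, a group I receptor coupled to Homer, with 455 to 1005, ahead of the presynaptic Grm8 with 88 to 288. Among the scaffolds, the MAGUK rows summed to between 2149 and 8247 counts, the SAPAP rows to 3614 to 6061, the Shank rows to 420 to 1029 and the Homer rows to 129 to 345. Dlg1 had 117 to 250 counts, Dlgap2 839 to 1530, Dlgap4 445 to 891, Shank1 295 to 704 and Homer2 105 to 213. The CaMKII rows summed to between 2336 and 7946 counts, and Baiap2, which links Rac signalling to actin in spines, had 91 to 214.

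Between regions of WT mice, rows of Cttnbp2 were higher and rows of Camk2d and Dlgap3 lower in the hippocampus than in the cortex. With rows added per gene, 31 of the 34 genes passed the low-count filter and these 3 passed edgeR's quasi-likelihood test at a Benjamini-Hochberg adjusted p under 0.05, where 3.49% of all genes tested did. The fit took the libraries as independent although the regions came from the same mice, and with the replicate number as a block 0 genes and 0 rows were called, at adjusted p of 0.102 for Cttnbp2, 0.117 for Camk2d and 0.153 for Dlgap3 by edgeR and nearly the same log2 fold changes. Cttnbp2 had 4330, 3970 and 3912 counts in the WT hippocampus and 2381, 2393 and 1636 in the WT cortex. The groups did not overlap. The level was 888 ± 39.5 CPM against 514 ± 52.1 (SD, n = 3), 1.70-fold higher in the hippocampus, with a log2 fold change of 0.77 (SE 0.11, edgeR adjusted p = 0.0189). Camk2d, a CaMKII subunit also found outside neurons, had 756, 740 and 803 counts in the WT hippocampus against 1082, 1301 and 1000 in the WT cortex. Its level was 167 ± 13.4 against 273 ± 14.0 CPM (SD, n = 3), and its log2 fold change was -0.73 (SE 0.12, edgeR adjusted p = 0.0277). Dlgap3, a SAPAP scaffold, had 14, 15 and 16 counts in the WT hippocampus and 41, 42 and 26 in the WT cortex. This was 3.28 ± 0.330 against 8.70 ± 1.24 CPM (SD, n = 3), a log2 fold change of -1.42 (SE 0.26, edgeR adjusted p = 0.0330) on few counts.

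Other members had WT region values that did not pass that threshold. Grin2a had a log2 fold change of 0.70 (SE 0.14, edgeR adjusted p = 0.05002), with 1199, 1247 and 1206 counts in the hippocampus and 806, 717 and 485 in the cortex. Homer3, a Homer scaffold, had 127, 107 and 131 counts against 29, 58 and 15, a log2 fold change of 1.72 (SE 0.37, edgeR adjusted p = 0.0600). Gria2 had 7754, 8868 and 7610 counts against 5548, 5910 and 4576, a log2 fold change of 0.42 (SE 0.10, edgeR adjusted p = 0.0795). Hippocampal and cortical values did not overlap in any of these 3 genes. At an unadjusted p under 0.05, 12 of 31 genes differed, 8 higher and 4 lower in the hippocampus, against 17.3% of all genes, and the groups did not overlap for 14 of 31, against 24.9% of all genes. The median log2 fold change of the 31 genes was -0.03, that of all genes -0.02. The calls did not hold without single libraries: without any 1 of hippocampus WT 1, 2 or 3, 0 genes were called. Without cortex WT 3 Cttnbp2 alone was called, without cortex WT 1 Cttnbp2 and Grin2a, and without cortex WT 2 Dlg3 and Homer3. DESeq2 called 7 genes (Cttnbp2, Camk2d, Homer3, Grin2a, Gria2, Dlgap3 and Camk2b), against 6.66% of all genes.

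Row by row, 100 of the 125 rows passed the filter in the WT libraries and 1 was called by edgeR, against 0.986% of all rows. This was the most abundant Camk2d row, ENSMUST00000129293, with 313, 321 and 303 counts in the hippocampus and 531, 569 and 401 in the cortex, a log2 fold change of -0.84 (SE 0.12, edgeR adjusted p = 0.0416). Its call was lost without any 1 of the 6 libraries, with adjusted p between 0.0816 and 0.190. At an unadjusted p under 0.05, 32 of the 100 rows differed, 19 higher and 13 lower in the hippocampus, against 12.8% of all rows. DESeq2 called 8 rows, against 3.38% of all rows. They included Gria2 ENSMUST00000193645, the row that runs past the Q/R exon, which had 4201, 4907 and 3951 counts in the hippocampus and 2629, 2554 and 1850 in the cortex (log2 fold change 0.73, SE 0.13, edgeR adjusted p = 0.0655). Of the other Gria2 row past that junction, ENSMUST00000194523, there were 109, 106 and 103 counts in the hippocampus and 130, 133 and 108 in the cortex. Of the next rows by p, Dlgap3 ENSMUST00000137062, which is that gene's single row, had a log2 fold change of -1.42 (SE 0.24, edgeR adjusted p = 0.0630), and Cttnbp2 ENSMUST00000139557 had 546 ± 17.6 CPM against 348 ± 5.70 (SD, n = 3; log2 fold change 0.63, SE 0.11, edgeR adjusted p = 0.0640). Rows of 1 gene can share exons, so they are not independent of each other.

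In 5 × FAD mice no member was called between the regions by edgeR. Of 30 genes tested 0 were called, against 0.193% of all genes, and of 101 rows 0 were called, against 0.0182% of all rows. Homer3 had 113, 88 and 97 counts in the hippocampal and 30, 44 and 32 in the cortical 5 × FAD libraries, without overlap. Its log2 fold change was 1.5 (SE 0.30, edgeR adjusted p = 0.104); it was 1.72 in WT mice. Camk2b had 3957, 1483 and 2700 counts against 1140, 1059 and 1641, with 1 hippocampal library below the highest cortical one, and a log2 fold change of 1.13 (SE 0.37, edgeR adjusted p = 0.289). Grin2a differed by 0.70 on the log2 scale (SE 0.25, edgeR adjusted p = 0.330). Cttnbp2, called in WT mice, had 2937, 3032 and 2820 counts against 2706, 2267 and 2562 and a log2 fold change of 0.25 (SE 0.15, edgeR adjusted p = 0.557). Camk2d had a log2 fold change of -0.59 (SE 0.29) and Dlgap3 of -0.84 (SE 0.32), both in the direction seen in WT mice. Among rows, Dlg3 ENSMUST00000151020 had a log2 fold change of -3.66 (SE 0.51, edgeR adjusted p = 0.119), with 20, 23 and 10 counts in the hippocampus and 120, 288 and 249 in the cortex. Homer3 ENSMUST00000135692 (1.85, SE 0.51, edgeR adjusted p = 0.344) and Cttnbp2 ENSMUST00000140416 (0.98, SE 0.27, edgeR adjusted p = 0.353) were higher in all hippocampal than in all cortical libraries. At an unadjusted p under 0.05, 4 of 30 genes differed against 12.6% of all genes, and 21 of 101 rows against 9.38% of all rows. Groups did not overlap for 6 of 30 genes, against 19.1% of all genes. DESeq2 called 1 gene, Homer3, against 2.95% of all genes, and 1 row, Dlg3 ENSMUST00000151020, against 1.66% of all rows.

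**Figure D3:**
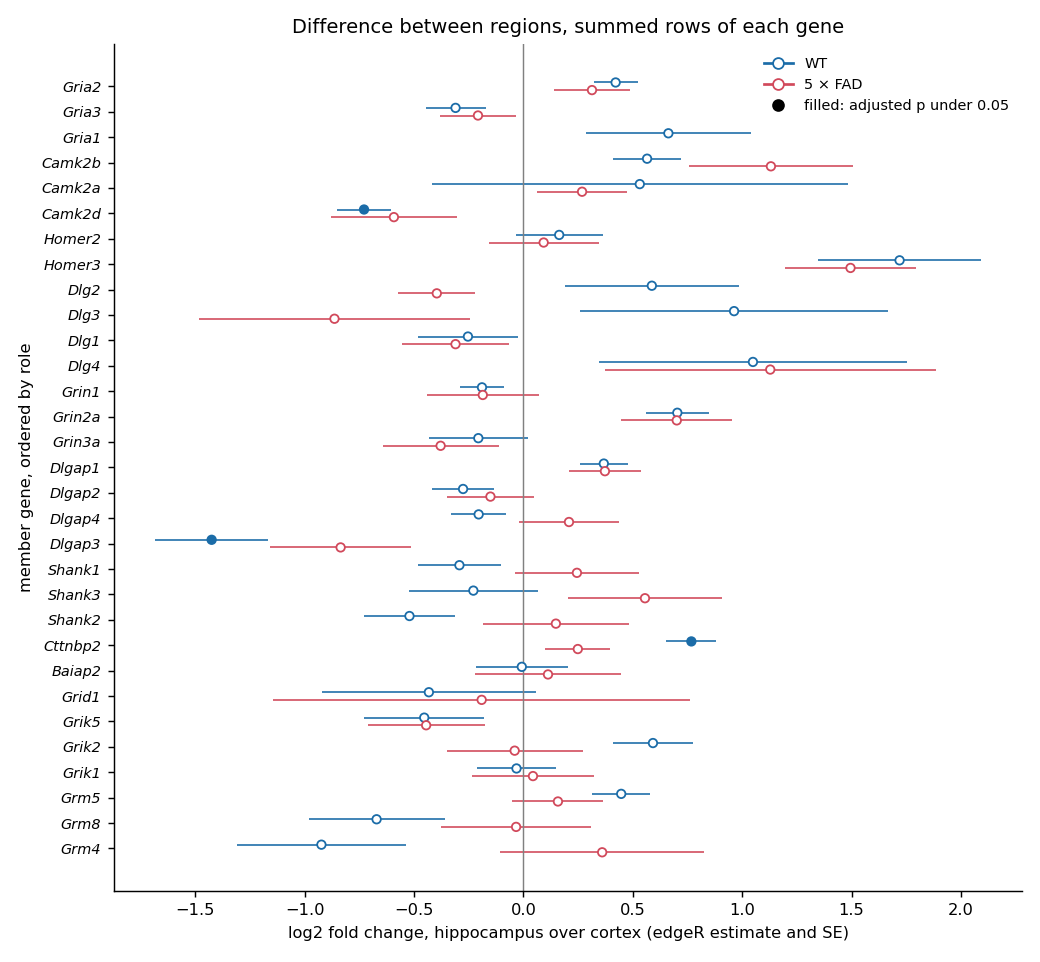
Log2 fold change of hippocampus over cortex (horizontal axis, edgeR estimate with its SE) for the summed rows of each member gene tested (vertical axis, ordered by role), in WT (blue) and 5 × FAD mice (red). Filled points passed an adjusted p under 0.05, which were Cttnbp2 (0.77), Camk2d (-0.73) and Dlgap3 (-1.42) in WT mice and 0 genes in 5 × FAD mice.

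Between genotypes no member passed edgeR's test in either region. In the hippocampus, 0 of 31 genes were called, against 0.0529% of all genes, and 0 of 97 rows, against 0.0183% of all rows. At an unadjusted p under 0.05, 2 of 31 genes differed, against 8.69% of all genes, and 7 of 97 rows, 2 higher and 5 lower in 5 × FAD mice, against 7.58% of all rows. Groups did not overlap for 7 of 31 genes, against 16.8% of all genes: Grm4 and Dlgap3 lay above WT and Grm5, Cttnbp2, Dlg3, Dlgap1 and Gria2 below. Overlap was judged on TMM-scaled CPM, with TMM factors of 0.935 to 0.988 in WT and 0.983 to 1.03 in 5 × FAD hippocampal libraries. Scaled by library totals alone, the groups of Dlg3, Dlgap1 and Gria2 overlapped. The median log2 fold change of the 31 genes was -0.11, that of all genes 0.03, and 21 of 31 estimates were below 0. In bulk tissue, fewer cells of a type and less RNA per cell cannot be told apart. The summed CPM of some marker lists moved with genotype in the hippocampus, while the neuron lists overlapped, and their part in these values was not tested. Astrocyte markers (4 of 5 with a row, Gfap, Aldh1l1, Slc1a3 and Gja1) were at 1328 to 1459 CPM in WT and 444 to 1066 in 5 × FAD libraries, and this was Slc1a3, a glutamate transporter, since the other 3 together were at 23.7 to 31.4 and 27.6 to 35.7 CPM. Oligodendrocyte markers (5 of 6 with a row) were at 349 to 439 and 500 to 584 CPM, of which those other than Cnp were at 186 to 194 and 171 to 223. The microglial gene Trem2, the single one of 7 microglial markers with a row, was at 19.4 to 32.3 and 39.9 to 186 CPM. Excitatory neuron markers (3 of 6 with a row, led by Slc17a7) were at 361 to 839 and 440 to 3666 CPM. Inhibitory neuron markers (3 of 6 with a row) spread from 30.5 to 1361 CPM within WT and from 24.2 to 2362 within 5 × FAD libraries.

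The hippocampal rows with the smallest p came from Dlg3, Cttnbp2 and Grm4. Dlg3 encodes a MAGUK scaffold and lies on the X chromosome. Its row ENSMUST00000151020 is a processed transcript of 12 exons that ends near the gene's 3′ end (chrX:100777285-100818408). Exons of coding transcripts held 97.35% of its bases, so its counts could include reads of the mRNA, which was not tested. This row had 145, 355 and 152 counts in the WT hippocampus and 20, 23 and 10 in the 5 × FAD hippocampus. The groups did not overlap, and the level was 47.1 ± 24.9 against 4.22 ± 1.56 CPM (SD, n = 3). The log2 fold change was -3.45 (SE 0.49, edgeR adjusted p = 0.210), and without 5 × FAD 1 and 2 it was -4.24 (edgeR adjusted p = 0.302). In the cortex the same row had 48, 125 and 16 counts in WT libraries, against 120, 288 and 249 in 5 × FAD libraries, with 1 WT library above the lowest 5 × FAD library and a log2 fold change of 1.89 (SE 0.68, edgeR adjusted p = 0.912).

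Cttnbp2 ENSMUST00000152499 is a row of 19 exons at the gene's 3′ end (chr6:18366478-18428231), with 84.6% of its bases in exons of coding transcripts. It had 1507, 1297 and 1408 counts in the WT hippocampus and 617, 673 and 596 in the 5 × FAD hippocampus. This was 306 ± 25.8 against 151 ± 5.07 CPM (SD, n = 3), without overlap. The log2 fold change was -1.01 (SE 0.17, edgeR adjusted p = 0.315), and without 5 × FAD 1 and 2 it was -1.06 (edgeR adjusted p = 0.275). A row of the gene's 5′ part, ENSMUST00000139557 (chr6:18431940-18514799), had 2642, 2486 and 2382 counts in the WT hippocampus, against 2119, 2231 and 2066 in the 5 × FAD hippocampus, with a log2 fold change of -0.07 (SE 0.15). The 3′ row thus made up 34.5% ± 1.68 of the gene's counts in the WT hippocampus and 21.4% ± 0.653 in the 5 × FAD hippocampus (SD, n = 3). In the cortex it made up 27.4% ± 7.04 in WT and 39.1% ± 2.98 in 5 × FAD mice. ENSMUST00000139557 was the least variable of the member rows with at least 1200 counts in all, with a mean coefficient of variation within groups of 2.93%.

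Grm4, a presynaptic metabotropic receptor that lowers glutamate release, had 18, 16 and 11 counts summed in the WT hippocampus and 77, 33 and 29 in the 5 × FAD hippocampus. The groups did not overlap, with a log2 fold change of 1.82 (SE 0.47, edgeR adjusted p = 0.495) that was 1.15 without 5 × FAD 1 and 2. Most of it came from the row ENSMUST00000146277 (log2 fold change 1.86, SE 0.48, edgeR adjusted p = 0.564). Grm5 had 977, 1005 and 826 counts in WT libraries, against 455, 674 and 693, with a log2 fold change of -0.44 (SE 0.19, edgeR adjusted p = 0.575), which was -0.23 without 5 × FAD 1 and 2. Camk2a, the main forebrain CaMKII subunit, had a log2 fold change of -1.79 (SE 0.75, edgeR adjusted p = 0.569) that rested on 1 library. Its single row, a retained-intron transcript, had 5250 counts in hippocampus WT 1 and 790 and 699 in WT 2 and 3, against 519, 521 and 657 in 5 × FAD mice. Across the leave-one-out fits this log2 fold change lay between -2.22 and -0.23, and it was -1.56 without 5 × FAD 1 and 2. DESeq2 called 2 of the 97 rows, Dlg3 ENSMUST00000151020 (DESeq2 adjusted p = 6.91e-08) and Cttnbp2 ENSMUST00000152499 (DESeq2 adjusted p = 0.000853), against 0.580% of all rows, and 0 genes, against 0.732% of all genes.

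In the cortex, 0 of 30 genes were called between genotypes by edgeR, against 0.0175% of all genes, and 0 of 100 rows, against 0.0545% of all rows. At an unadjusted p under 0.05, 4 of 30 genes differed, against 6.67% of all genes, and 5 of 100 rows, against 5.34% of all rows. Groups did not overlap for 7 of 30 genes, against 12.9% of all genes. DESeq2 also called 0 genes, against 0.465% of all genes, and 0 rows, against 0.464% of all rows. Shank3, a scaffold whose loss causes a human autism syndrome, had 341, 368 and 160 counts in WT libraries, against 124, 97 and 210, with overlap and a log2 fold change of -1.02 (SE 0.32, edgeR adjusted p = 0.723). That value was -0.52 without 5 × FAD 1 and 2. Dlg2, a MAGUK scaffold, had 1547, 3857 and 2721 counts in WT libraries, against 4509, 4343 and 5664 in 5 × FAD libraries, a log2 fold change of 0.80 (SE 0.31, edgeR adjusted p = 0.735). Most of this gene's counts, 71.8%, were in 1 row, ENSMUST00000138389, which had 368, 2692 and 1865 counts in WT libraries, against 3254, 3412 and 4663. Exons of coding transcripts held 90.62% of the bases of that row. Shank2 had 51, 61 and 38 counts against 41, 28 and 35, a log2 fold change of -0.56 (SE 0.22, edgeR adjusted p = 0.740). Among single rows, Dlgap1 ENSMUST00000126801 had 363, 272 and 249 counts in WT libraries, against 185, 136 and 171, a log2 fold change of -0.88 (SE 0.19, edgeR adjusted p = 0.696). Shank3 ENSMUST00000123799 had 121, 197 and 104 counts against 68, 63 and 102 (log2 fold change -0.86, SE 0.26, edgeR adjusted p = 0.851). Without 5 × FAD 1 and 2 the log2 fold changes were 0.97 for Dlg2, -0.60 for Shank2, -0.89 for the Dlgap1 row and -0.54 for the Shank3 row. Camk2a had 2992, 600 and 566 counts in WT libraries, against 580, 441 and 418, so WT 1 was the high library in the cortex as in the hippocampus. The median log2 fold change was -0.14 over the 100 rows, of which 67 were below 0, and 0.00 over all rows. Some marker lists moved in the cortex too, and their part was not tested. Oligodendrocyte markers were at 295 to 473 CPM in WT and 539 to 610 in 5 × FAD libraries. Excitatory neuron markers were at 366 to 403 CPM in WT and 251 to 316 in 5 × FAD libraries. This was Slc17a7, at 350 to 386 and 244 to 307 CPM, since the other 2 together were at 8.73 to 17.6 and 6.80 to 9.10 CPM. The genotypes overlapped for astrocyte markers, at 866 to 1481 and 871 to 1426, and for Trem2, at 36.3 to 53.4 and 19.7 to 232.

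**Figure D4:**
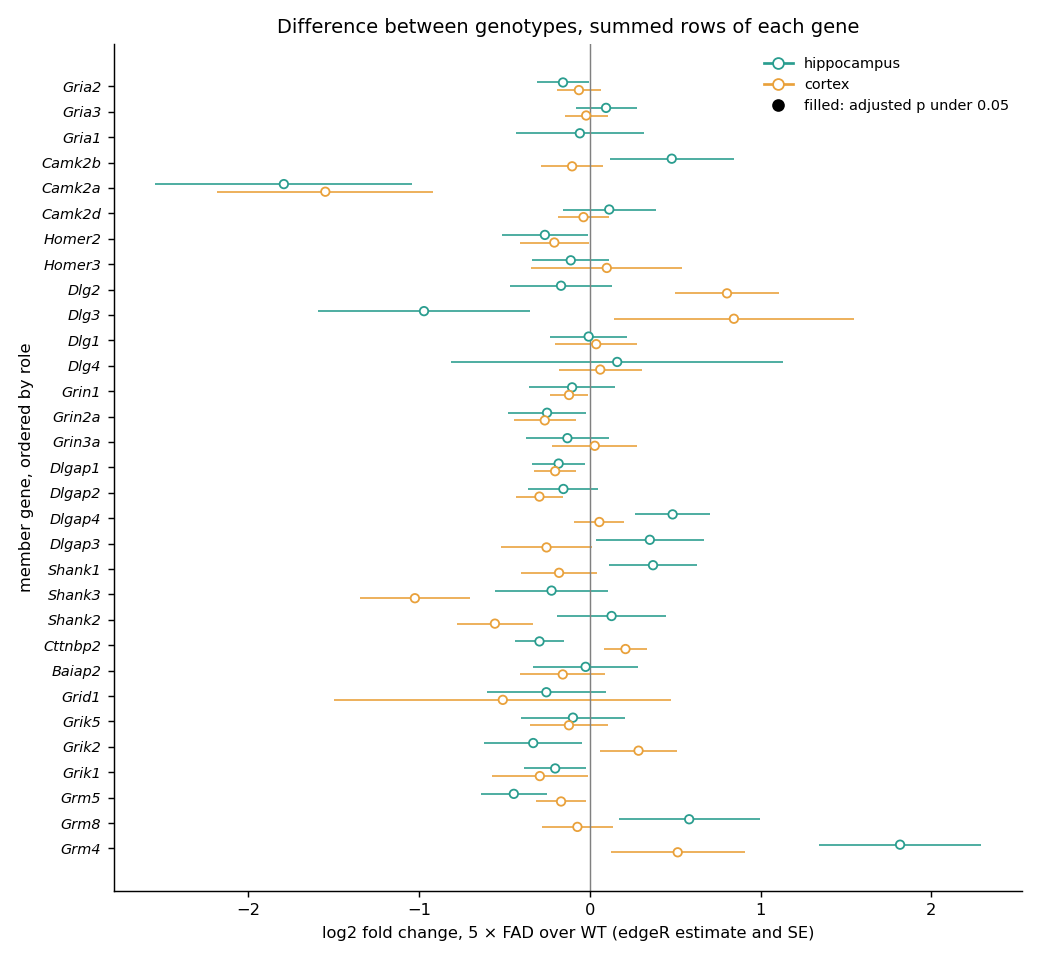
Log2 fold change of 5 × FAD over WT (horizontal axis, edgeR estimate with its SE) for the summed rows of each member gene tested (vertical axis, ordered by role), in the hippocampus (green) and the cortex (orange). A filled point would mark an adjusted p under 0.05 and there were 0, with Grm4 at 1.82 and Camk2a at -1.79 farthest from 0 in the hippocampus.

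An interaction term, fitted over all 12 libraries, compared the genotype difference of the hippocampus with that of the cortex. By edgeR 0 of 31 genes were called, against 0% of all genes, and 0 of 108 rows, against 0.00812% of all rows. At an unadjusted p under 0.05, 1 gene differed, against 7.01% of all genes, and 6 rows, against 6.89% of all rows. The gene was Cttnbp2, with a log2 interaction of -0.53 (SE 0.16, edgeR adjusted p = 0.648), followed by Dlg2 (-1.002, SE 0.46, edgeR adjusted p = 0.702) and Grm4 (1.27, SE 0.64, edgeR adjusted p = 0.715), which was 0.23 without 5 × FAD 1 and 2. The rows with the smallest p were Dlg3 ENSMUST00000151020 (log2 interaction -5.37, SE 0.94, edgeR adjusted p = 0.489), Cttnbp2 ENSMUST00000152499 (-1.73, SE 0.33, edgeR adjusted p = 0.556) and Dlgap1 ENSMUST00000156946 (-1.04, SE 0.33, edgeR adjusted p = 0.650), the last at -0.37 without 5 × FAD 1 and 2. The genotype groups lay apart in opposite directions in the regions for 2 of 108 rows, against 0.784% of all rows, and for 1 of 31 genes, against 0.801% of all genes. For Cttnbp2 ENSMUST00000152499 the cortical counts were 820, 659 and 333 in WT libraries, against 1000, 964 and 971, so 5 × FAD lay above WT in the cortex and below it in the hippocampus. DESeq2 called the Dlg3 and Cttnbp2 rows, against 0.426% of all rows, and 0 genes, against 0.157% of all genes.

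**Figure D5:**
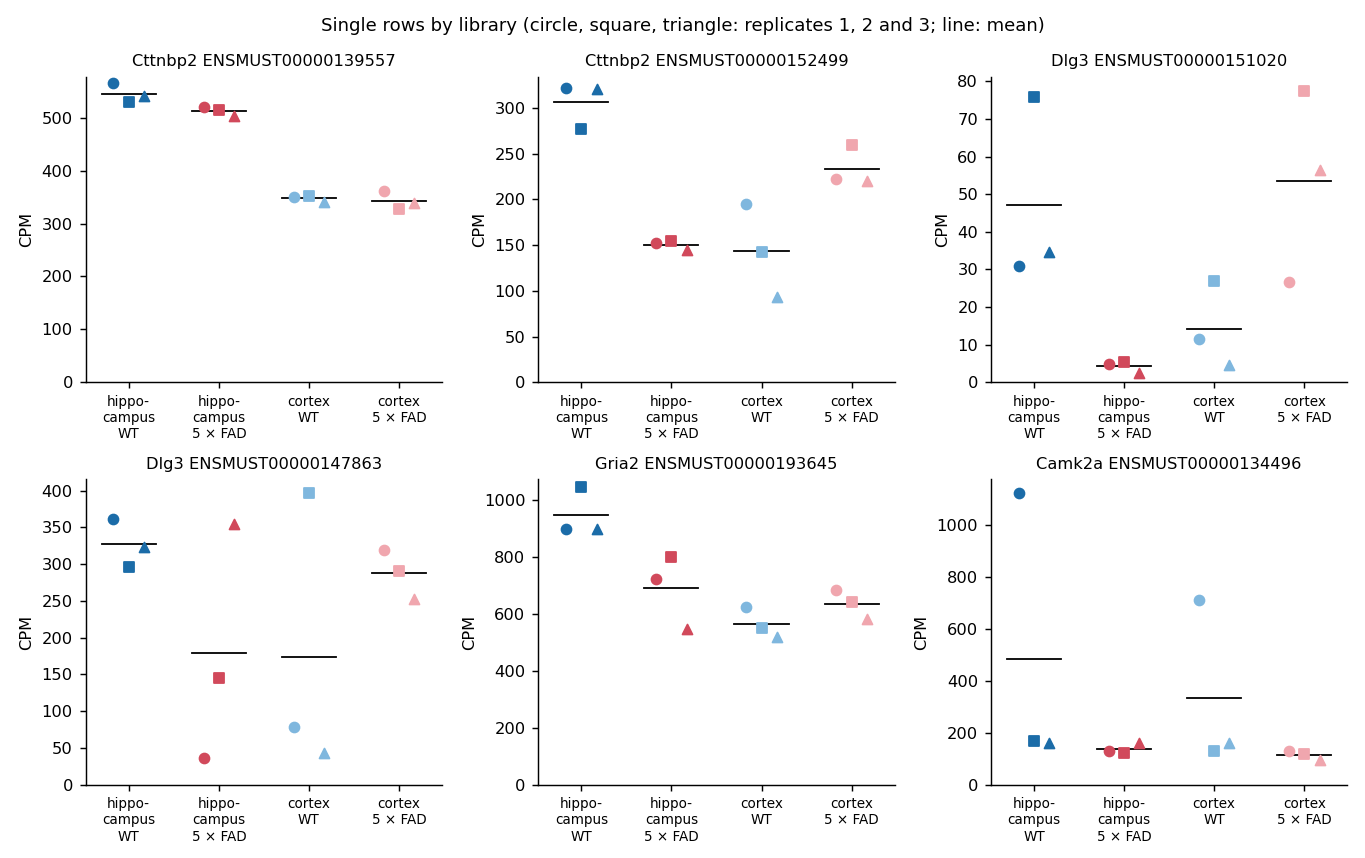
CPM of 6 single rows in each library (vertical axes from 0; symbols mark replicates 1, 2 and 3 and lines the means) in the 4 groups. Cttnbp2 ENSMUST00000139557 separates the regions, ENSMUST00000152499 averages 306 CPM in the WT and 151 in the 5 × FAD hippocampus, Dlg3 ENSMUST00000151020 averages 47.1 and 4.22, and Camk2a ENSMUST00000134496 is high in WT 1 of both regions.

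Several abundant rows varied widely between replicates. Of the 46 rows with at least 1200 counts in all, 9 differed by more than 3-fold between libraries of 1 group. Camk2b ENSMUST00000155755 had 1931, 202 and 564 counts in the 5 × FAD hippocampus, a 10.2-fold range in CPM. Dlg3 ENSMUST00000147863, the row that holds an intron, had 148, 629 and 1456 counts in the 5 × FAD hippocampus and 331, 1844 and 155 in the WT cortex, while the WT hippocampus had 1694, 1391 and 1419. Outside these 46 rows, the summed rows of Dlg4, which encodes the best known MAGUK of the postsynaptic density, held 921 counts in all. They had 241, 35 and 48 counts in the WT hippocampus and 238, 32 and 41 in the 5 × FAD hippocampus. Over the 46 rows, which share libraries and in part genes, the Spearman correlation of the coefficient of variation within groups with the share of coding bases was 0.069. The median coefficient of variation was 18.3% in the 24 rows with under 50% coding bases and 18.1% in the 22 others.

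Other genes of the pathway were counted from lists of related genes, with rows added per gene. Between the WT regions edgeR called 1 of 11 tested genes of receptor trafficking, 1 of 20 other postsynaptic density genes, 2 of 14 of postsynaptic signalling, 0 of 7 of glutamate transport and metabolism and 0 of 2 other glutamate receptors. Grip2, which binds AMPA receptor tails, was lower in the hippocampus than in the cortex, where it had 32.2 ± 3.49 CPM (SD, n = 3; log2 fold change -1.57, SE 0.19, edgeR adjusted p = 0.00879). The scaffold Tanc1 was higher in the hippocampus (346 ± 135 against 64.3 ± 14.6 CPM, SD, n = 3; log2 fold change 2.41, edgeR adjusted p = 0.0134). Rasgrf1, a Ras exchange factor activated by calcium, was also higher (log2 fold change 0.79, edgeR adjusted p = 0.0172). Camkk2, a kinase upstream of other calcium/calmodulin kinases, was lower (log2 fold change -0.88, edgeR adjusted p = 0.0202). Of the 54 genes tested over these lists, 4 were called by edgeR, against 3.49% of all genes, 12 had an unadjusted p under 0.05, against 17.3%, and DESeq2 called 6, against 6.66%. Between the 5 × FAD regions edgeR called 0 of 54, against 0.193% of all genes, with 7 at an unadjusted p under 0.05, against 12.6%, and 3 called by DESeq2, against 2.95%. Between genotypes edgeR and DESeq2 called 0 of 55 in each region, with 4 at an unadjusted p under 0.05 in each, against 8.69% of all genes in the hippocampus and 6.67% in the cortex, and in the interaction 0 of 56, with 5 against 7.01%.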

How the data were processed

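The authors deposited whole-number counts per transcript for each of the 12 libraries, made from rRNA-depleted, stranded, paired-end libraries of total RNA, and the submitters' processing notes name Trimmomatic 0.36 and edgeR. Aligner, counter, build and annotation are not given in the sources used here, and the methods of the paper describe its circRNA libraries. All 12 columns were used and 0 were left out. Identifiers were matched to GENCODE M21 (GRCm38), where 225 of 45597 Ensembl identifiers were not found, and 2436 assembled rows had no gene name.

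Counts were tested per row and with the rows of a gene added, across the whole table, with edgeR 4.0.16 in R 4.3.3 (filterByExpr, TMM scaling, glmQLFit and glmQLFTest, Benjamini-Hochberg adjustment at 0.05). Each comparison used its own 6 libraries and the interaction all 12. The SE was taken as the absolute log2 fold change over the root of the F statistic. Alternatives were DESeq2 1.42.0, other scaling, other filters, a replicate block, all libraries in 1 fit, leaving out each library, and leaving out 5 × FAD 1 and 2, where the lone 5 × FAD library of a region is assumed to vary like the WT libraries. CPM used TMM-scaled totals. Structures and figures used Python 3.11.15 and pandas 2.3.3. The functions were tested on simulated data. Replicates differed by more than counting noise in all 12 pairs, with chi-square per degree of freedom of 20.8 to 33.0 over rows with at least 20 counts.

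The members and lists were chosen with earlier results of these data known. Named were all 34 genes by role, up to 8 called members in each direction per comparison, the 3 with the smallest p where fewer than 3 were called, the 5 highest per kb and up to 3 pathway genes a list. Further rows (other rows of a named gene, variable rows, the lowest genes, Shank1, Dlg4 and the markers) were named after their values were seen. The total counts set the precision, and the floor of 3 counts marks low counts only. Labels name the libraries as separate samples, and whether equal numbers in the regions mark the same mouse is not stated.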

Additional observations from a re-analysis of the deposited data

Results flagged for a closer look

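Genotype differences ran in opposite directions in the regions, without overlap of the groups in either region, for 2 of 108 rows and 1 of 31 genes tested, against 0.784% of all rows and 0.801% of all genes. The row Shank1 ENSMUST00000127164, of a scaffold under the receptors, had 82, 90 and 85 counts in the WT hippocampus and 104, 98 and 86 in the 5 × FAD hippocampus, against 74, 81 and 68 in the WT cortex and 67, 37 and 60 in the 5 × FAD cortex. Its log2 interaction was 0.79 (SE 0.27, edgeR adjusted p = 0.655). Cttnbp2 ENSMUST00000152499 had a log2 interaction of -1.73 (SE 0.33, edgeR adjusted p = 0.556), and the summed rows of Cttnbp2 one of -0.53 (SE 0.16, edgeR adjusted p = 0.648). The 3 differences did not pass the adjusted test by edgeR, and the gene sum contains the row. Over 19 alternatives, the fit without 5 × FAD 1 and 2 among them, the log2 interaction lay between -2.01 and -1.50 for the Cttnbp2 row. For the Cttnbp2 sum it lay between -0.572 and -0.456. In the fit without 5 × FAD 1 and 2, 5 × FAD is 1 library per region. No such value is given for the Shank1 row, so sex and genotype are not told apart in it.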

How the results depend on the processing

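Of 146 alternative counts of called members, 122 stayed within 1.5 times the value reported and 24 moved. Of the 146, 94 were genotype or interaction counts, where the value reported was 0, and 92 of these stayed and 2 moved. The other moved counts were all between regions, where the calls were made. Of 441 alternative values of named members and of the 5 highest levels, 0 changed sign, 29 lost a call and 14 gained one. Between the WT regions, where 3 genes and 1 row were called, DESeq2 called 7 genes and 8 rows, a minimum of 10 counts in every library gave 5 genes and 5 rows, all 12 libraries in 1 fit gave 2 rows, and no filter on low counts gave 0 rows. Leaving out single libraries gave 0 to 2 genes and 0 rows. Between the 5 × FAD regions, where 0 were called, DESeq2 called 1 gene and 1 row, and the minimum of 10 counts and the fit of 12 libraries 1 row each. DESeq2 called 2 rows between genotypes in the hippocampus and 2 in the interaction. The cause was not tested. With the replicate number as a block, 0 genes and 0 rows were called between the WT regions, and the block changed no other count of calls. Over the 12 same-numbered pairs of libraries, the correlation of deviations from the group means lay between -0.046 and 0.1504, and 3 of 12 correlated best with their own number. Pairs between genotypes cannot be the same mouse, and between regions only 5 × FAD 3 correlated best with its own number. The sex-linked counts of 5 × FAD libraries and the high Camk2a of WT 1 did match by number across the regions. These values cannot decide the pairing, so the main fits did not pair the samples. Other scalings moved the members' median log2 fold change by up to 0.083. Genes with few counts, such as Dlgap3, Grm4, Grin2b and Homer1, are limited by depth.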
